A study of Mus musculus with 144 samples.

Results

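The comparison described here is that of endothelial cells isolated from the liver at zeitgeber time (ZT, hours after lights on) 4, from mice with a hepatocyte knockout of the nuclear receptors REV-ERBα and REV-ERBβ and from their controls. Its 6 libraries, 3 of each genotype, were taken by genotype, cell type and time from the 144 libraries of the series. All came from male C57BL/6J mice on normal chow. The control libraries are labelled WT and their columns in the deposited table carry the name GFP. The knockout libraries are labelled REV-ERB a/b double knockout, and their columns carry the name CRE. The design text places the deletion in hepatocytes of adult mice, so the endothelial cells themselves are not described as lacking either receptor. The labels do not give the promoter behind Cre, the animals' ages, whether animals were pooled, the feeding schedule of the mice used for cell isolation, or whether libraries of a group came from separate animals. The p-values below therefore measure the spread between libraries, which may be technical. Endothelial libraries at ZT10, ZT16 and ZT22, Kupffer cell libraries at ZT4 and whole-liver libraries at ZT4 under ad libitum feeding, each with 3 libraries a genotype, were used for comparison.

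The REV-ERB receptors, products of the genes Nr1d1 and Nr1d2, are repressors in the circadian clock. They bind response elements that the ROR activators also use, and so restrain Arntl and Npas2, whose products pair into the activators of the clock, as well as Nfil3 and Cry1. Liver sinusoidal endothelial cells line the hepatic capillaries, lie against the hepatocytes with no basement membrane in between, scavenge macromolecules from the blood, and send secreted signals such as Wnt2, Rspo3 and Hgf to the hepatocytes.

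The values of the endothelial table are a signal that had been brought to the same distribution in every library (quantile normalisation, read from the values), so the depth of each library is unknown and a shift shared by most genes cannot be seen. Differences are given as knockout minus control on the scale log2(value + 1), which understates differences of low genes, with the standard error (SE) or the 95% interval from limma, fitted to all 24 endothelial libraries. A gene counts as called at a Benjamini-Hochberg adjusted p under 0.05 over all 12525 genes tested.

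The libraries carried the signature of sinusoidal endothelium. All 22 listed markers of sinusoidal endothelial cells were above the filter on low values, and together they took 3.53%, 3.14% and 3.28% of the summed value of the control libraries and 3.29%, 3.20% and 3.57% of the knockout libraries. Stab2, a scavenger receptor of these cells, had values of 24679, 20095 and 20095 in controls and 20095, 20095 and 24679 in knockouts. Equal values in different libraries are shared ranks of the quantile normalisation. Pecam1, the adhesion molecule CD31, was at 3494, 3328 and 3556 in controls and 3730, 3639 and 3774 in knockouts, 0.10 ± 0.09 (SE) on the log2 scale. Kdr, the main receptor for vascular endothelial growth factor, was at −0.07 ± 0.10 and Cdh5, the endothelial cadherin, at 0.01 ± 0.12.

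Hepatocyte RNA was present in every library and varied within each genotype. Alb, which encodes albumin, took 0.206%, 0.931% and 0.933% of the controls and 0.930%, 0.654% and 0.135% of the knockouts. In control libraries 2 and 3 and knockout library 1 its value was a shared rank (35198 in each), so near-equal shares there do not show equal hepatocyte RNA. The 16 other hepatocyte markers took 0.130%, 0.842% and 0.410% of the controls and 0.734%, 0.444% and 0.121% of the knockouts, which is 1.35% to 9.95% of their level in whole liver. Control library 1 and knockout library 3 were therefore the lowest of their groups on both measures, and the groups overlapped. The difference in the summed hepatocyte markers without Alb was −0.0629 on the log2 scale (exact permutation test, two-sided, p = 0.9), and that in Alb −0.374 (p = 0.5). With 3 libraries against 3, the smallest p such a test can give is 0.1, and over the 14 library measures tested no adjusted p was below 0.7.

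Markers of other cell types were present too. All 16 Kupffer cell markers passed the filter, with a summed level of 0.394% to 0.522% in controls and 0.200% to 0.441% in knockouts, the lowest value being that of knockout library 1. All 12 stellate cell markers passed, at 0.415% to 0.490% in controls and 0.321% to 0.590% in knockouts. Of 8 cholangiocyte markers 6 stayed under a value of 10 in all 6 libraries, and the sum was 0.00223% to 0.00454% in controls and 0.00589% to 0.0103% in knockouts, groups that did not overlap (exact permutation test, p = 0.1, adjusted p = 0.7). Most of that sum was Spp1. The summed erythroid and platelet markers did not overlap either and went the other way, at 0.00351% to 0.00401% in controls and 0.00242% to 0.00315% in knockouts (exact permutation test, p = 0.1, adjusted p = 0.7). Of 12 neutrophil and monocyte markers 8 stayed under 10 and 2 were at 0 in all 6 libraries. In bulk samples such as these, fewer cells of a type and less RNA per cell cannot be told apart.

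**Figure D1:**
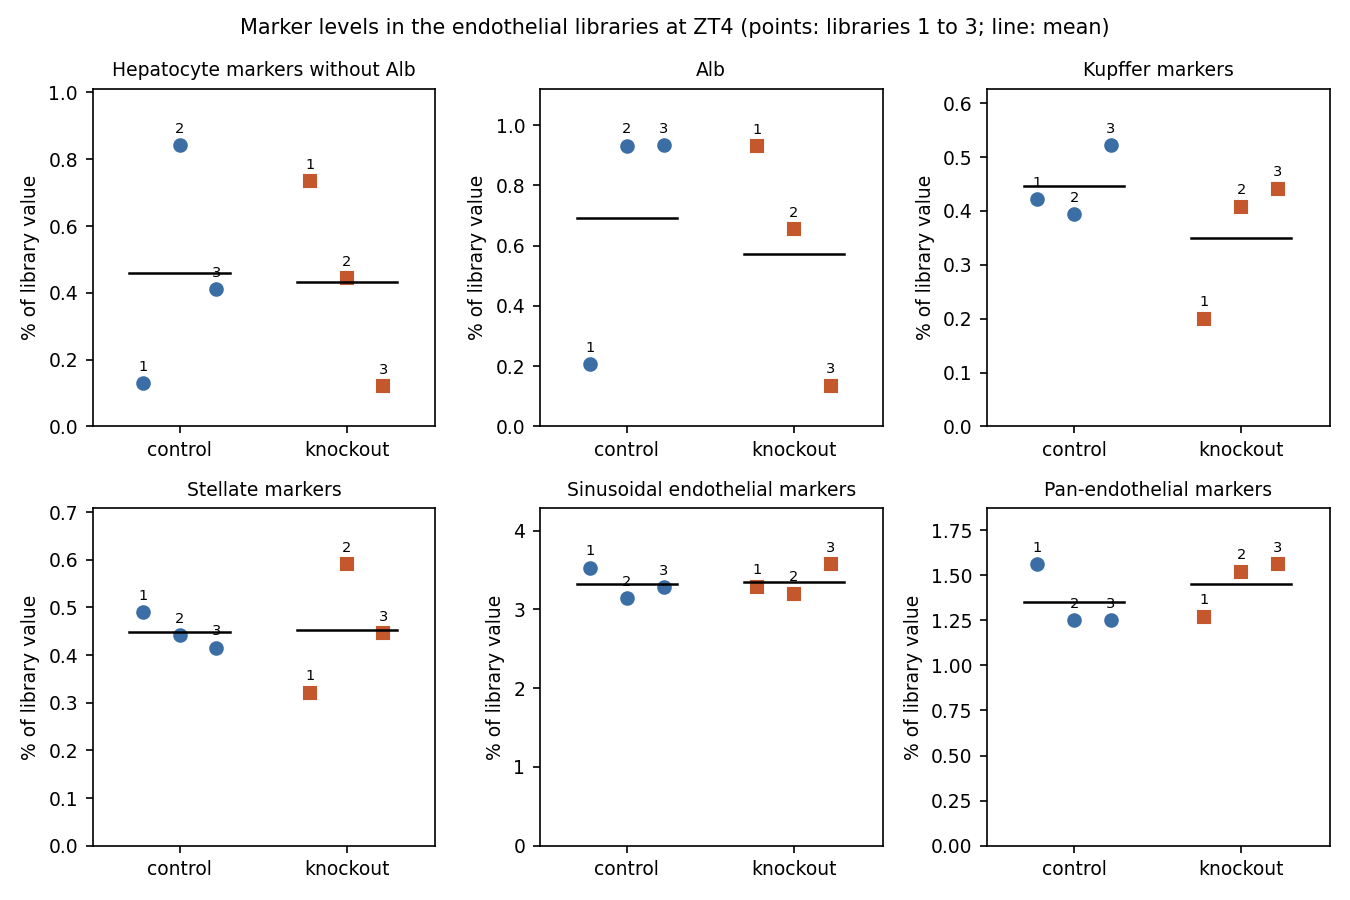
Summed marker levels (percent of the library's summed value, vertical axes) in the 3 control and 3 knockout endothelial libraries at ZT4, with points numbered by library and a line at the group mean. Hepatocyte markers ranged from 0.121% to 0.842% and overlapped between genotypes, while sinusoidal endothelial markers lay between 3.14% and 3.57%.

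The knocked-out genes themselves were present in the endothelial libraries. Nr1d1 (NM_145434, mm9 chr11:98629246-98636691) had values of 300, 175 and 162 in controls and 100, 225 and 154 in knockouts. The groups overlapped, and the difference was −0.43 ± 0.40. Nr1d2 (NM_011584, mm9 chr14:19036570-19071620) had values of 708, 638 and 644 in controls and 528, 536 and 594 in knockouts. All knockout libraries lay below the controls, with a difference of −0.26 ± 0.25 (adjusted p = 0.989), against 0.63 ± 0.20 in whole liver. These are values over whole transcripts, and the labels do not give the deleted exons, so they check neither the deletion nor its cell type.

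No gene passed the test in endothelial cells at ZT4: 0 of 12525 genes (0%) were called, and the lowest adjusted p was 0.223, shared by Cyp17a1 and Stx8. At an unadjusted p under 0.05 there were 574 genes (4.58%), 308 higher (2.46%) and 266 lower (2.12%) in knockouts. The groups did not overlap for 1460 genes (11.7%), with 805 above (6.43%) and 655 below (5.23%). In Kupffer cells at ZT4, 0 of 12271 genes (0%) were called and 310 (2.53%) had an unadjusted p under 0.05. In whole liver at ZT4, where edgeR's quasi-likelihood test was run on the estimated counts, 201 of 12536 genes (1.6%) were called, 112 higher (0.893%) and 89 lower (0.71%). The median SE of the endothelial difference was 0.196. For 10047 genes, 80.2% of those tested, the 95% interval lay wholly within a 2-fold change either way, and among the 9230 genes with a mean log2 value of at least 5 this held for 8499 (92.1%).

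The endothelial libraries were then set against whole liver, gene by gene. Among the genes called in liver with at least a 2-fold difference, 54 were also tested in endothelial cells, 36 higher and 18 lower in knockout liver. They split by where their RNA is more abundant, measured as the ratio of a gene's share of all values in liver to its share in endothelial cells, over control libraries at the other 3 times. For 21 genes the share in liver was at least 8-fold higher, for 21 the endothelial share was higher, and 12 lay between.

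Genes that are far more abundant in liver mostly differed in the endothelial libraries with the liver's sign. Of these 21 genes 20 had the liver's sign, the exception being Tlcd2 (0.03 against −1.03 in liver), and 9 had an unadjusted p under 0.05. Across all 875 genes with an 8-fold higher share in liver, 64.2% had the liver's sign. At an unadjusted p under 0.05 there were 28 of the 875 with that sign and 6 with the other. The filter on low values can be passed through a single genotype, which favours a given sign for genes nearly absent from the other. The median of the 12 genes higher in knockout liver was 1.36 in both tables. The median of the 9 lower genes was −0.392 in endothelial cells against −1.44 in liver.

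Cyp17a1 (mm9 chr19:46741655-46747490), a steroid 17α-hydroxylase, had values of 0, 0.866 and 3.17 in controls and 37.7, 32.9 and 14.3 in knockouts. Every knockout library was above every control, and the difference was 3.78 ± 0.70 (95% interval 2.32 to 5.23, adjusted p = 0.223). It was 3.61 in liver and 3.83 in Kupffer cells, and 2.83, 2.02 and 3.65 in endothelial cells at ZT10, ZT16 and ZT22. Cyp2a5 (mm9 chr7:27620358-27628283), a coumarin-metabolising cytochrome P450, had values of 20.5, 123 and 46.4 in controls and 569, 364 and 175 in knockouts. Its groups did not overlap, and its difference was 2.73 ± 0.81, against 2.70 in liver and 2.73 in Kupffer cells. Cyp2a4, whose transcript is nearly identical to that of Cyp2a5 so that reads may be split between them, was at 2.98 ± 0.94 against 3.03 in liver. Its value was 0 in control libraries 1 and 3 and close to 0 in control library 2. The size of its endothelial difference therefore depends on the 1 added before the log2.

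Cyp4a12a, a male-predominant fatty acid hydroxylase, had values of 15.1, 91.0 and 29.2 in controls and 11.9, 10.9 and 0.822 in knockouts. All knockout libraries were below the controls, by −2.44 ± 0.96, against −2.07 in liver. Upp2, a uridine phosphorylase of the liver, had values of 33.9, 50.1 and 49.6 in controls and 114, 164 and 76.1 in knockouts, a difference of 1.34 ± 0.61 against 1.21 in liver. None of these genes was called.

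The same genes were also scaled to the hepatocyte RNA in each library. Per 1000 units of the summed hepatocyte markers other than Alb, Cyp2a5 was at 4.24, 3.86 and 3 in control and 20.5, 21.7 and 38.5 in knockout endothelial libraries. In whole liver the same ratio was 5.03, 3.59 and 11.1 in controls and 40.9, 48.3 and 36.0 in knockouts. Scaled in this way, the control levels of the 2 sample types overlapped. The knockout levels overlapped only through endothelial knockout library 3, the lowest in hepatocyte markers. Endothelial knockout libraries 1 and 2 lay below every knockout liver library. These ratios come from quantile-normalised signal in endothelial cells and from estimated counts in liver. Cyp4a12a was at 3.11, 2.86 and 1.89 in control and 0.429, 0.653 and 0.181 in knockout endothelial libraries, below the liver's 4.25 to 7.26 and 0.741 to 1.82. Cyp17a1 per 1000 units was at 0, 0.0272 and 0.205 in control and 1.36, 1.97 and 3.15 in knockout endothelial libraries, while liver had 0.0106 to 0.0321 and 0.197 to 0.310. Its ratio was thus higher in every knockout endothelial library than in any liver library. Upp2 overlapped once scaled, at 6.99, 1.57 and 3.21 in control and 4.11, 9.79 and 16.8 in knockout endothelial libraries. The part of hepatocyte RNA in these differences was not tested beyond these ratios and a covariate. With the hepatocyte score of each library as a covariate, Cyp17a1 and Cyp2a5 were called by limma, both at an adjusted p of 0.00204.

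The genes called in liver that are more abundant in endothelial cells had smaller differences there than in liver. Of these 21 genes 12 had the liver's sign, and across all 7391 genes with a higher endothelial share the figure was 48.4%. At an unadjusted p under 0.05, 2 had the liver's sign, Gas7 (0.29 against 1.45) and Pde4b (0.40 against 1.14). Dbp had the other sign, and over the 7391 genes these counts were 145 and 162. The 16 of them that rose in liver had a median of 0.0446 in endothelial cells against 1.64 in liver. The 5 that fell in liver had a median of −0.0448 against −1.26. For all 21 the 95% interval of the endothelial difference left out the liver's value, which was taken without its own SE. The same held for 10 of the 12 genes between and 7 of the 21 with the far higher liver share. Over the 7391 genes it held for 2048. The choice of genes with a large liver difference favours this outcome.

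The difference between the 2 effects was tested for the 11425 genes present in both tables, from the 2 fits together and with adjustment over all of them. This test was added after the data were seen. It called 13 genes (0.114%), 12 with a lower effect in endothelial cells than in liver (0.105%) and 1 with a higher effect (0.00875%). Of the 54 genes 9 were called, 7 of them among the 21 with a higher endothelial share, 2 among the 12 between and 0 among the 21 with the far higher liver share. The 54 had been picked for a large liver difference, which is part of the tested quantity, and this favours calls among them. Cry1, Dbp, Per3 and Loxl4 kept the call in all 28 alternatives run, and Ppard and Asap1 kept it whichever 1 ZT4 library of either sample type was left out. Fam65c, Lpl, Myo10, Aldh3a2, Bhlhe41, Tspan4 and Tbcel each lost it for some single library, endothelial knockout library 1 among them for all 7, with adjusted p of 0.0501 to 0.201.

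Loxl4, a lysyl oxidase-like enzyme that crosslinks collagen, was the strongest of them. In liver (mm9 chr19:42666769-42687296) it rose from 4.87, 10.2 and 4.83 CPM (counts scaled to library size) to 108, 79.7 and 97.2, by 3.85 ± 0.28. In endothelial cells its values were 104, 93.6 and 73.5 in controls and 127, 107 and 100 in knockouts, groups that overlapped, with an interval of −0.13 to 0.74. The effect was lower in endothelial cells by 3.54 ± 0.35 (adjusted p = 4.02e-10, from the limma and edgeR fits). Ppard, a lipid-sensing nuclear receptor, was at 0.16 ± 0.30 against 2.70 in liver (adjusted p of the difference 0.000172). Lpl, lipoprotein lipase, was at −0.31 ± 0.30 against 1.64 (adjusted p = 0.0354). Aldh3a2, a fatty aldehyde dehydrogenase, was the 1 gene with the higher effect, at −0.12 ± 0.10 against −1.17 (adjusted p = 0.0264). Fam65c, Asap1, Myo10 and Tbcel were the others outside the clock, at −0.60, −0.08, −0.15 and 0.03 in endothelial cells against 2.35, 0.84, 0.74 and 0.99 in liver. Cdkn1a, a cell cycle inhibitor, was at 0.72 against 2.96, a difference of effects that was not called (adjusted p = 0.202).

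**Figure D2:**
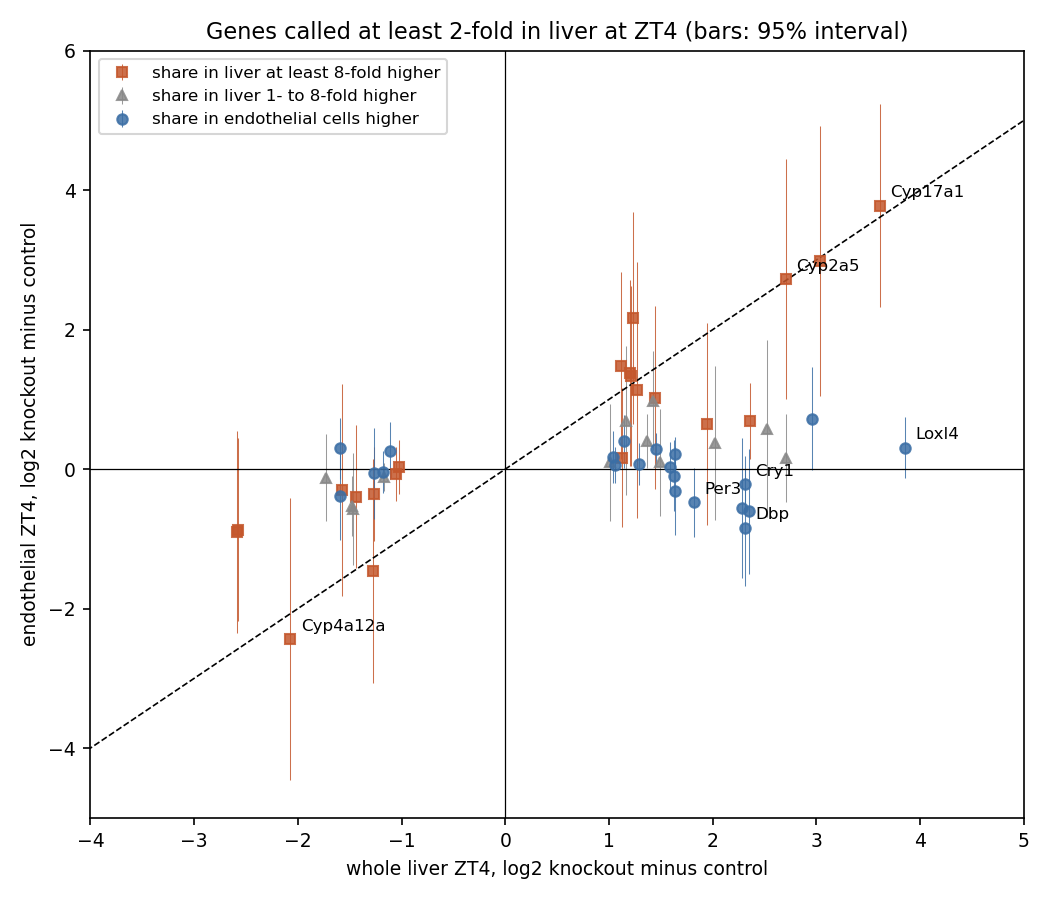
Knockout minus control difference (log2) at ZT4 in whole liver (horizontal axis) and in endothelial libraries (vertical axis, bars for the 95% interval) for the 54 genes called at least 2-fold in liver, with the dashed line marking equal differences. Squares, with a liver share at least 8-fold higher, reach toward the line at Cyp17a1 and Cyp2a5. Circles, with a higher endothelial share, lie between −0.84 (Dbp) and 0.72 (Cdkn1a), including Loxl4 at 0.31 against 3.85.

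Of the 13 genes called, 5 are clock or clock output genes. The promoters of 4 clock genes are given here as examples picked because they hold a clock element. Cry1, Bhlhe41 and Per3 are among those 5 and Nfil3 is not. They are the 250 bases before the transcription start in RefSeq on GRCm38.p6, 5′ to 3′ on the gene's strand. Cry1 (chr10:85185055-85185304, minus strand) and Bhlhe41 (chr6:145865421-145865670, minus strand) hold the E-box CACGTG, bound by the Arntl and Clock products. Per3 (chr4:151044666-151044915, minus strand) holds the D-box TTATGTAA, to which the products of Dbp, Tef and Nfil3 bind. Nfil3 (chr13:52981040-52981289, minus strand) holds TGACCT, which is AGGTCA, the core of REV-ERB and ROR response elements, read on the other strand. Capitals mark these letters.
Cry1: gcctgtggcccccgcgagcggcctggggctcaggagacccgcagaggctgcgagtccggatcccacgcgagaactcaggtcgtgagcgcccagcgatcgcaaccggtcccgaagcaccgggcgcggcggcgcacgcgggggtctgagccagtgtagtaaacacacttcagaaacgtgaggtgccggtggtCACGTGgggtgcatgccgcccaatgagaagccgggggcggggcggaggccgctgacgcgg
Bhlhe41: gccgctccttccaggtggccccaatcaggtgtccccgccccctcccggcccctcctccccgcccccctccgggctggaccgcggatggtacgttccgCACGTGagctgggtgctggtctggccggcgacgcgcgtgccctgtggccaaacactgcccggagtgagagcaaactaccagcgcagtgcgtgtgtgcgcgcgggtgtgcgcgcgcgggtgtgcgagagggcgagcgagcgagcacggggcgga
Per3: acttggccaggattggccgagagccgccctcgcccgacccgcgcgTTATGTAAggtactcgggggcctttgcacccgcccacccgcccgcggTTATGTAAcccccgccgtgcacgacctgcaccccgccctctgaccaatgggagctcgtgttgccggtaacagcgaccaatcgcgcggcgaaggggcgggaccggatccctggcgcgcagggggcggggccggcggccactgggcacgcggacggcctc
Nfil3: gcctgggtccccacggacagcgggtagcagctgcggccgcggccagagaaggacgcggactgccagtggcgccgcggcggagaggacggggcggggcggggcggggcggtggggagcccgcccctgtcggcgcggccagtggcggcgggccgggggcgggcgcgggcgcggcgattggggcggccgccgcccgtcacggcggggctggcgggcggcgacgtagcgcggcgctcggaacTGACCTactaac
Both strands were searched for each motif, and each printed window holds 1 of the 3 motifs, which do not overlap. Over all 32851 promoter windows of this length, CACGTG was found in 6.02%, TTATGTAA in 0.819% and AGGTCA in 14%. Of the 23 listed clock genes 19 had a window, and 6 held CACGTG, 1 TTATGTAA and 5 AGGTCA. Of the called genes not printed, Dbp held none of the 3 motifs and Tspan4 held CACGTG in 1 of its 2 windows. A match is only a description of the letters.

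Of 23 clock and clock output genes, 9 were called in liver and 0 in endothelial cells (background 1.6% and 0%). The 15 core clock genes had 7 positive and 8 negative differences in endothelial cells, a median of −0.03 beside 0.00946 for all genes, and a range of −0.56 to 1.07. None had an unadjusted p under 0.05. The knockout libraries were all above the controls for 4 of the 15 and all below for 3 (6.43% and 5.23% of all genes). The core clock median was −0.154 to 0 without single libraries. The 8 output genes had 5 positive and 3 negative differences with a median of 0.085, whose sign was not stable: it was −0.186 without knockout library 2, 0.016 without control library 1, 0.378 without knockout library 1 and −0.501 over genes with a mean value of at least 50. Of the 8, 2 genes, Dbp and Tspan4, had an unadjusted p under 0.05, both lower (2.12% of all genes). With the 6 ZT4 libraries alone, 1 positive and 3 negative output genes did, and 0 were called.

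For Arntl, Npas2 and Nfil3 the signs were those of the liver, with wide intervals. Arntl, whose product pairs with that of Clock, had values of 93.8, 89.1 and 81.5 in controls and 156, 116 and 162 in knockouts. All knockout libraries were above the controls, and the difference was 0.69 ± 0.51 (adjusted p = 0.989), against 1.17 in liver and 0.15 in Kupffer cells. Npas2, a paralogue of Clock, had values of 10.6, 7.76 and 13.1 in controls and 17.2, 17.5 and 13.2 in knockouts, 0.58 ± 0.61 against 2.52 in liver. Nfil3, a repressor at D-boxes whose promoter is printed above, had values of 8.92, 6.17 and 5.19 in controls and 17.9, 19 and 8.84 in knockouts. Its groups overlapped and the difference was 1.03 ± 0.63, against 1.45 in liver. For Arntl the difference of effects was −0.47 ± 0.53 (adjusted p = 0.891), so the endothelial value could not be told from the liver's at this precision.

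Cry1, Per3 and Bhlhe41, repressors of the clock, rose in liver and did not do so in endothelial cells. In liver Cry1 (mm9 chr10:84594445-84647799) rose from 4.13, 6.00 and 3.86 CPM to 30.6, 23.0 and 16.9. In endothelial cells it had values of 21.3, 28.7 and 28.4 in controls and 23.0, 23.8 and 20.1 in knockouts. These groups overlapped, and the difference of −0.21 had an interval of −0.61 to 0.18 against 2.31 in liver. The effect of the knockout on Cry1 was lower in endothelial cells by 2.52 ± 0.30 (adjusted p = 2.91e-08, limma and edgeR fits).

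Per3 (mm9 chr4:150377764-150418774) had values of 94.0, 65.1 and 77.5 in control and 55.1, 57.7 and 54.8 in knockout endothelial libraries. All knockout libraries lay below the controls, at −0.47 ± 0.24, while liver was at 1.82 (adjusted p of the difference 0.000172). Bhlhe41, also called Dec2, was low in endothelial cells, with 4.13, 5.25 and 4.95 in controls and 2.22, 3.21 and 3.38 in knockouts, −0.56 ± 0.48 against 2.28 (adjusted p = 0.0264). The other repressors had differences of effects that were not called: Per1 was at 1.07 ± 0.61, Per2 at 0.06 ± 0.43 and Cry2 at −0.32 ± 0.24. Per1 values were 37.5, 48.1 and 107 in controls and 113, 141 and 115 in knockouts, just without overlap, and its difference in Kupffer cells was 1.70.

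Among the output genes of the clock, Dbp (mm9 chr7:52960617-52965573), which encodes an activator at D-boxes, rose in liver from 24.8, 12.8 and 23.0 CPM to 93.3, 142 and 68.6. In endothelial cells its values were 141, 70.6 and 87.2 in controls and 42.2, 60.4 and 58.4 in knockouts. Every knockout library was below every control, by −0.84 ± 0.40 (unadjusted p = 0.0496). The difference from the liver's 2.32 was −3.15 ± 0.53 (adjusted p = 0.000892). Tef, another activator at D-boxes, had values of 209, 267 and 284 in controls and 162, 195 and 180 in knockouts, −0.49 ± 0.29 against 0.68 in liver (adjusted p of the difference 0.225) and −0.63 in Kupffer cells. Tspan4, a membrane tetraspanin on the output list, had values of 271, 223 and 228 in controls and 162, 186 and 156 in knockouts. Its difference was −0.51 ± 0.18 against 0.62 in liver (adjusted p of the difference 0.00857). In all, the difference from liver was called for 5 of the 23 genes, Per3, Cry1, Bhlhe41, Dbp and Tspan4, each lower in endothelial cells. The endothelial groups of Per3, Bhlhe41, Dbp and Tspan4 did not overlap, with all knockout libraries below the controls (5.23% of all genes). The choice of genes by a lower endothelial effect favours this.

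**Figure D3:**
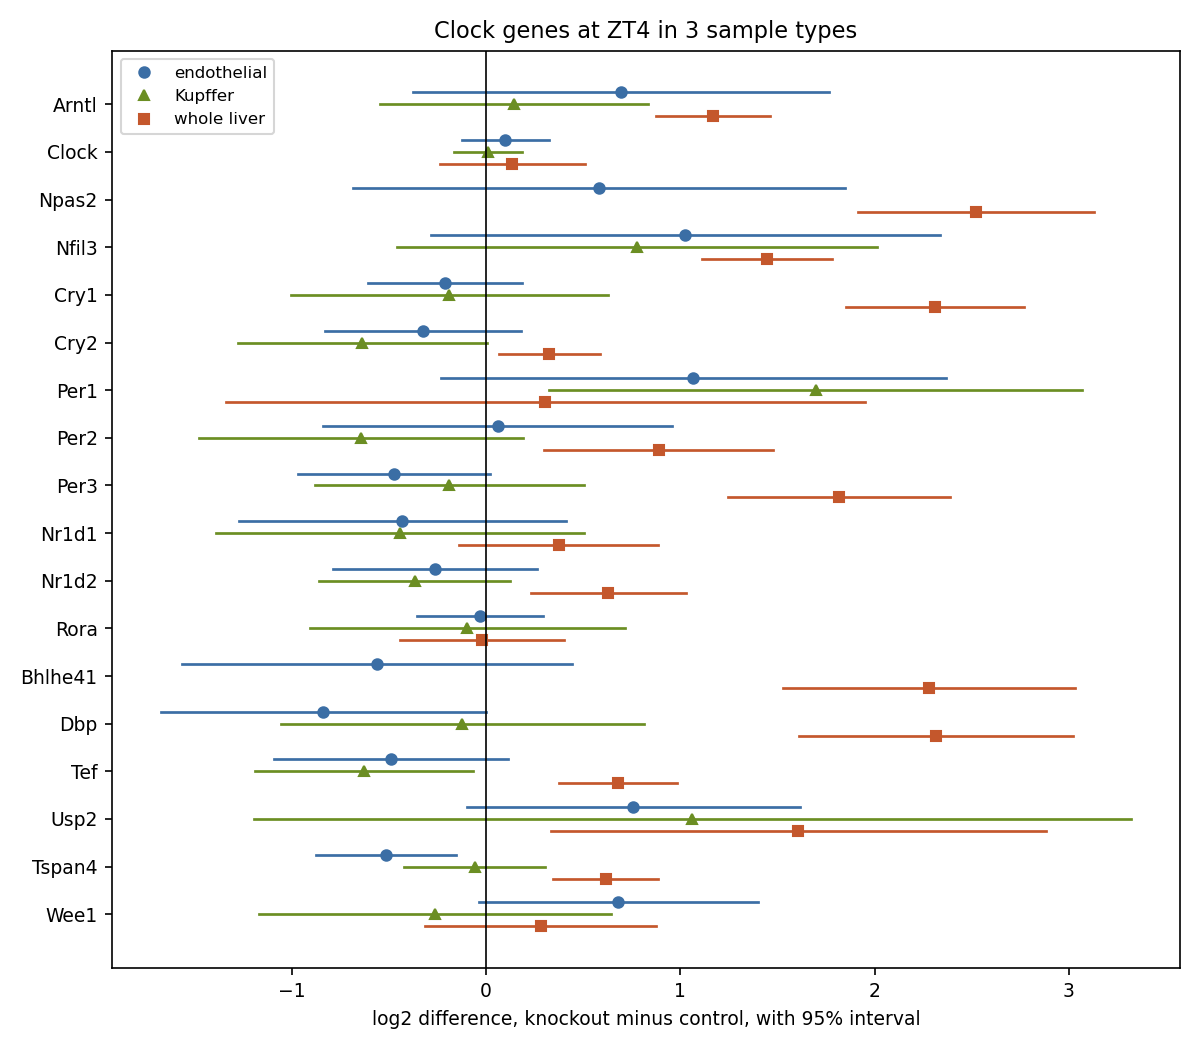
Knockout minus control difference (log2, horizontal axis) with its 95% interval for clock genes at ZT4 in endothelial, Kupffer and whole-liver libraries; genes not tested in Kupffer cells have no triangle. Liver points of Cry1, Per3, Bhlhe41 and Dbp lie between 1.82 and 2.32, and their endothelial points between −0.84 and −0.21.

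Genes with the smallest p in endothelial cells were named by rule among those with a mean log2 value of at least 5. None of them was called. The higher ones were led by Dusp4, Ddit4, Clec1a, AI607873 and Mllt3. Cyp17a1, with a smaller p, lies below that level. Ddit4 (mm9 chr10:59412423-59414518), a stress-induced inhibitor of mTORC1 that glucocorticoids also induce, had values of 32.3, 35.3 and 47.0 in controls and 155, 162 and 166 in knockouts. The groups were far apart, with a difference of 2.07 ± 0.50 (95% interval 1.02 to 3.11, adjusted p = 0.989 by limma). At ZT10, ZT16 and ZT22 its differences were −0.54, 1.06 and 0.62. With the 6 ZT4 libraries alone, the SE of Ddit4 was 0.17 and its adjusted p 0.00309 by limma. In Kupffer cells Ddit4 had values of 4.97, 7.39 and 17.4 in controls and 140, 211 and 214 in knockouts, a difference of 4.26 that was not called either (adjusted p = 1). In liver it was at −0.61.

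Dusp4, a phosphatase that acts on MAP kinases, had values of 46.4, 70.0 and 61.0 in controls and 138, 112 and 89.9 in knockouts, 0.93 ± 0.23. Clec1a, a C-type lectin receptor of endothelial and myeloid cells, had values of 548, 452 and 459 in controls and 717, 716 and 784 in knockouts, 0.61 ± 0.16. Mllt3, a subunit of the super elongation complex, had values of 35.6, 31.8 and 25.1 in controls and 50.1, 57.3 and 47.0 in knockouts, 0.73 ± 0.21. AI607873, an interferon-inducible gene, was at 491, 496 and 492 in controls and 704, 918 and 821 in knockouts, 0.71 ± 0.20. In all 5 genes every knockout library lay above every control, which the choice by smallest p favours.

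The lower ones were led by Stx8, Atp5j2, Mir682, Rps21 and Gm5148. Stx8 (mm9 chr11:67779985-68020650), a syntaxin of late endosomal membrane fusion, had values of 128, 119 and 112 in controls and 83.5, 84.6 and 70.7 in knockouts. The groups did not overlap and the libraries of each group lay close together, with an interval of −0.82 to −0.35 (adjusted p = 0.223). At ZT10, ZT16 and ZT22 its differences were −0.04, 0.01 and 0.11. In the other 4 genes control library 1 was the highest of all. Rps21, a ribosomal protein, had values of 160, 74.4 and 83.5 in controls and 57.9, 38.9 and 63.3 in knockouts, −0.92 ± 0.25. Atp5j2, a subunit of ATP synthase, had values of 253, 130 and 152 in controls and 114, 117 and 104 in knockouts, −0.61 ± 0.16. Mir682 and Gm5148 were at −0.66 and −0.56. The listed Mir682 transcript has 95 bases, and whether its value comes from a longer overlapping RNA was not tested.

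**Figure D4:**
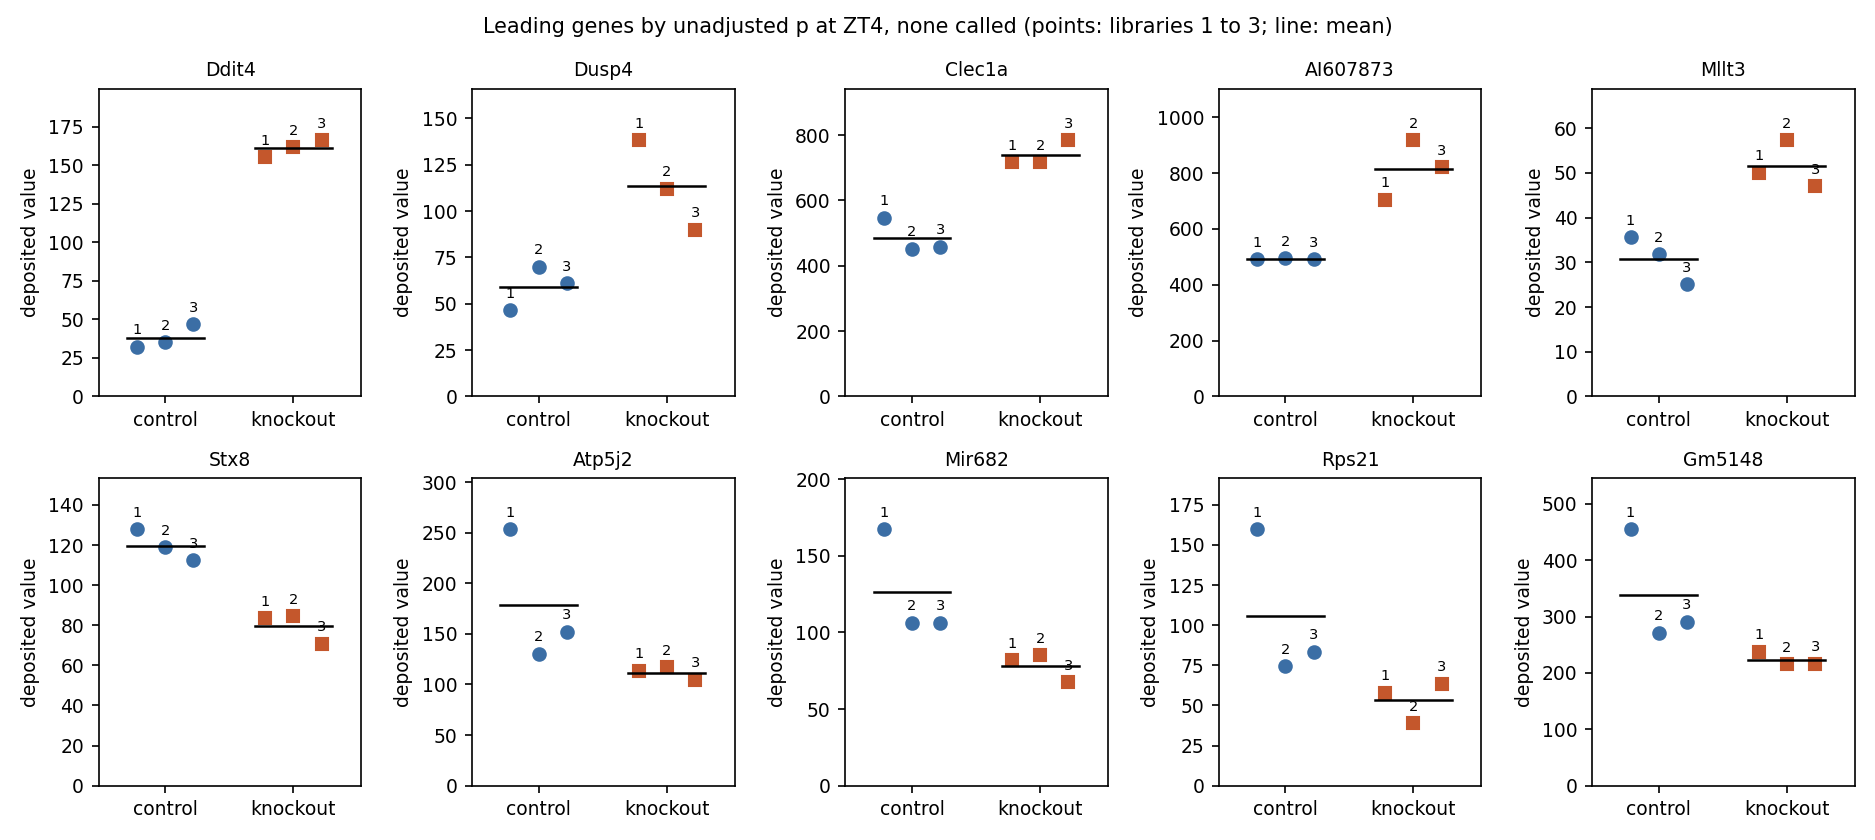
Deposited values (vertical axes, from 0) in the 3 control and 3 knockout endothelial libraries at ZT4, with points numbered by library and a line at the mean. Shown are the 5 genes with the smallest p among the higher ones (top row) and the lower ones (bottom row). Only genes with a mean log2 value of at least 5 were considered. Ddit4 lies at 32.3 to 47.0 in controls and 155 to 166 in knockouts, and control library 1 is the highest point in Atp5j2, Mir682, Rps21 and Gm5148.

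Lists of genes that mark the endothelial cell had medians near 0. In each list below 0 genes were called, as in all genes (0%), so the lists are described by signs and medians. The 22 sinusoidal identity genes had 9 positive and 12 negative differences, with Stab2 at 0, and a median of −0.011, which was −0.073 to 0.059 without single libraries. Maf, a transcription factor of sinusoidal identity, had values of 2443, 2832 and 2785 in controls and 3477, 3342 and 3512 in knockouts, 0.36 ± 0.14. Cldn5, a claudin of endothelial tight junctions, was lower in every knockout library, with 496, 514 and 526 in controls and 405, 322 and 331 in knockouts, −0.54 ± 0.17. The 17 pan-endothelial genes tested had a median of 0.063. Among them Sox18, an endothelial transcription factor, had values of 164, 149 and 137 in controls and 110, 83.1 and 94.4 in knockouts, −0.65 ± 0.22.

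Signals from endothelium to hepatocytes had small differences too. The 14 angiocrine genes tested had 8 positive and 6 negative differences, a median of 0.113 and no unadjusted p under 0.05. Wnt2, a ligand that maintains the zonation of hepatocytes around the central vein, was at −0.07 ± 0.18 and its amplifier Rspo3 at 0.10 ± 0.24. Hgf, the hepatocyte growth factor, was at −0.18 ± 0.15. Bmp2, which with Bmp6 sets hepcidin expression in hepatocytes, had values of 2002, 1936 and 2127 in controls and 2443, 2231 and 2581 in knockouts, all above the controls, at 0.26 ± 0.14. Bmp6 overlapped, at 0.33 ± 0.24. The intervals of Wnt2, Hgf and Bmp2 lay within −0.49 to 0.54.

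Genes of portal and arterial endothelium had 7 positive and 3 negative differences of 10 and a median of 0.109. Of these, 3 had an unadjusted p under 0.05, all higher (2.46% of all genes), a count that was 1 without control library 3 or without knockout library 3. Efnb2, the arterial ephrin, had values of 285, 294 and 352 in controls and 434, 479 and 488 in knockouts, 0.59 ± 0.22. Gja5, which encodes connexin 40, had values of 12.6, 13.6 and 5.36 in controls and 37.1, 13.4 and 89.4 in knockouts, groups that overlapped, at 1.77 ± 0.65. Adam23 was at 0.41 ± 0.19. The central vein list, with 8 positive and 2 negative differences of 10, had a median of 0.09. Of 11 genes that respond to shear stress, Klf2, a flow-induced transcription factor, was at 0.77 ± 0.36 with overlapping groups. S1pr1, the endothelial receptor for sphingosine 1-phosphate, was named after its values were seen and had 474, 467 and 506 in controls and 785, 735 and 757 in knockouts, 0.65 ± 0.21.

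Targets of the glucocorticoid receptor were mostly higher in the knockout libraries, with 0 called. Of 13 genes 11 were positive and 2 negative, the median was 0.379 beside 0.00946 for all genes, and 5 lay above the controls and 2 below in every knockout library (6.43% and 5.23% of all genes). Besides Ddit4, the genes with an unadjusted p under 0.05 were Zbtb16, a transcriptional repressor, at 1.58 ± 0.71 and Mt1, a metallothionein, at −0.49 ± 0.20. Zbtb16 values were 43.0, 19.2 and 70.1 in controls and 100, 227 and 72.6 in knockouts. Tsc22d3, the leucine zipper GILZ, had values of 328, 373 and 505 in controls and 583, 673 and 487 in knockouts, which overlapped, at 0.54 ± 0.26. Fkbp5, a co-chaperone of the receptor, was at 0.27 ± 0.31. The median of the same list was −0.464 at ZT10, 0.181 at ZT16 and 0.353 at ZT22, and 0.691 in Kupffer cells at ZT4.

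Genes for ribosomal proteins and oxidative phosphorylation were mostly lower in the knockout libraries, with 0 called. Of 23 ribosomal protein genes 21 were negative, 11 had an unadjusted p under 0.05, all lower (2.12% of all genes), 10 lay below the controls in every knockout library (5.23% of all genes), and the median was −0.352. Of 24 oxidative phosphorylation genes 22 were negative, 4 had an unadjusted p under 0.05, all lower (2.12% of all genes), and the median was −0.179. Both lists hold short transcripts, with median lengths of 732 and 741 bases, and control library 1 was the 1 library whose slope of expression on transcript length was negative, at −0.04 log2 units per log2 base against 0.0203 to 0.0714 in the other 5. Without control library 1, 1 ribosomal protein gene and 1 oxidative phosphorylation gene had an unadjusted p under 0.05, the medians were −0.179 and −0.033, and 20 of 23 and 13 of 24 genes were negative. The ribosomal count at an unadjusted p under 0.05 was 4 without knockout library 3, and that of oxidative phosphorylation was 9 without control library 2 and 2 without knockout library 2. With the length slope as a covariate, an alternative added after the data were seen, the medians were −0.238 and −0.059, with 19 of 23 and 17 of 24 genes negative. The part of transcript length in these differences was not tested beyond these fits.

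All 7 genes of MHC class II were negative, with a median of −0.291, and 15 of 16 Kupffer cell markers were negative, with a median of −0.436 and no gene below the controls in every knockout library. The MHC class II median depended on single libraries: it was −0.005 without knockout library 1 and −0.042 without control library 3, but −0.601 without control library 1, −0.537 without knockout library 2 and −0.451 without knockout library 3. The part of Kupffer cell RNA in these values was not tested. Of 16 matrix genes 13 were negative with a median of −0.143, of 20 interferon-responsive genes 16 were positive with a median of 0.075, and of 15 heat shock genes 13 were positive with a median of 0.18. Among 14 immediate early genes 9 were negative, with a median of −0.342, which was −0.011 without knockout library 2, −0.157 without control library 3 and −0.544 without knockout library 3. The matrix median was −0.04 without knockout library 1, and −0.276 and −0.253 without knockout library 2 and control library 3. The interferon median was 0.157, 0.129 and 0.122 without control library 1, knockout library 2 and knockout library 1. With all 6 libraries, none of these 4 lists had a gene with an unadjusted p under 0.05.

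**Figure D5:**
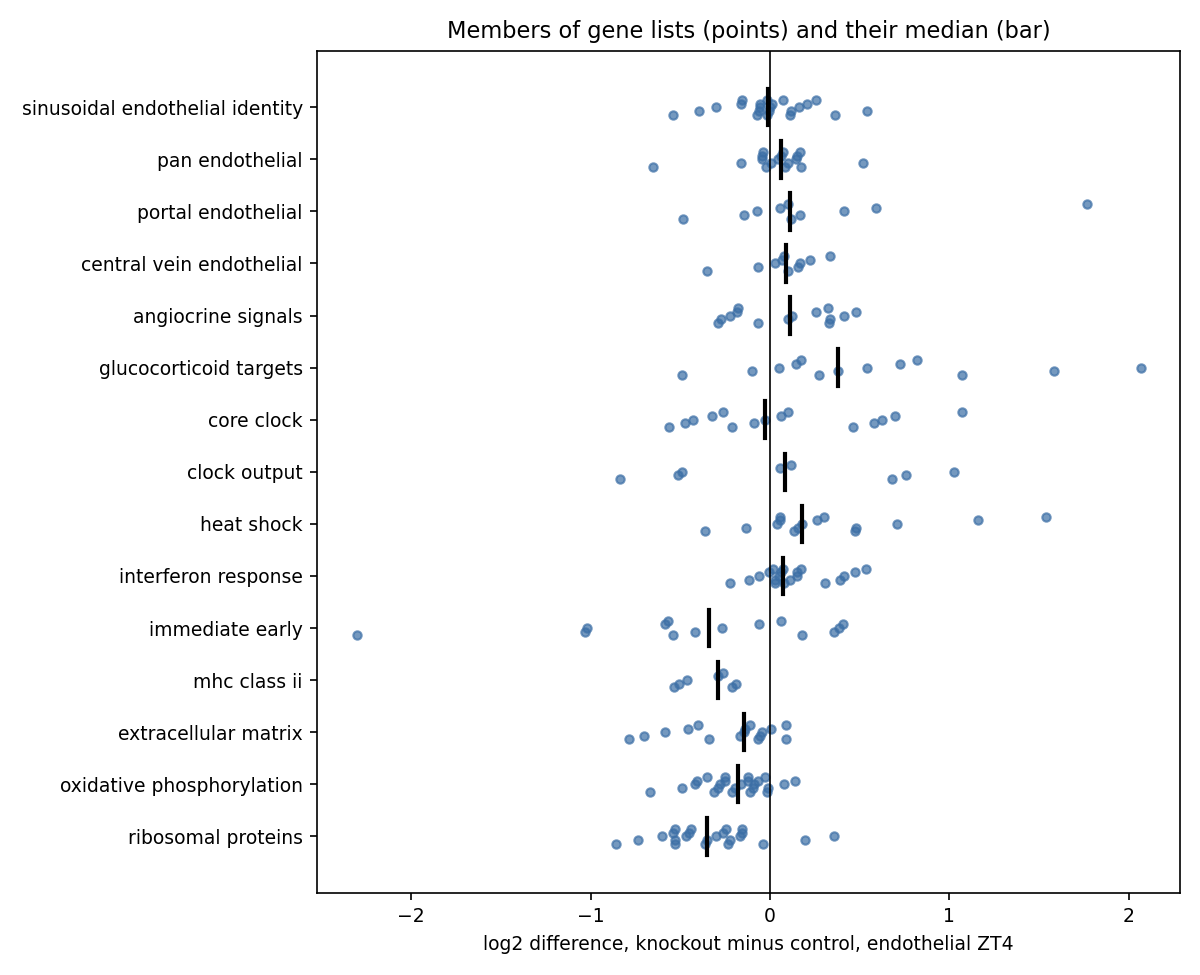
Knockout minus control difference (log2, horizontal axis) of each tested member (points) and the median (bar) of 15 gene lists in endothelial libraries at ZT4. The glucocorticoid target median lies at 0.379 and the ribosomal protein median at −0.352, and those of the sinusoidal and pan-endothelial lists at −0.011 and 0.063.

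The difference at ZT4 was also set against the mean of the differences at ZT10, ZT16 and ZT22. No gene was called (0 of 12525, 0%, by limma), and 615 genes (4.91%) had an unadjusted p under 0.05. The lowest adjusted p was that of Stx8, whose ZT4 difference was lower than the mean of the others by 0.61 ± 0.13 (adjusted p = 0.83). By the same contrast Ddit4 was higher at ZT4 by 1.68 ± 0.57 and Clec1a by 0.61 ± 0.19, each at an adjusted p of 0.986. Next by p were Fam73a, higher by 1.02 ± 0.26, Fam63b, higher by 0.39 ± 0.10, and Dzip1l, lower by 1.15 ± 0.30. At the single times, 1 gene was called at ZT10 (0.00798%), 0 at ZT16 and 0 at ZT22 (each 0%), while 2254 (18%), 1615 (12.9%) and 1708 (13.6%) genes had an unadjusted p under 0.05.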

How the data were processed

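Per the labels' protocols, TruSeq libraries were made from RNA prepared with Trizol and an RNeasy column. STAR, HOMER and mm9 are given in the submitters' processing notes, with no versions. For both isolated cell types the authors' deposited tables hold a signal, quantile-normalised as read from the values (the 24 columns share 1 sorted set, and 71.6% of endothelial values are not whole), which were analysed in place of the counts that had been assumed. The deposited liver values are expected counts in steps of 0.5, rounded here, from libraries of 4570000 to 8050000 counts at ZT4. Of 34600 transcript rows, 1 per gene (largest mean) was kept, 24421 in all. Signal was tested with limma 3.58.1 (trend, robust, 8 group means over 24 libraries) on log2(value + 1) for genes reaching a value of 10 in 3 or more libraries. Liver counts were tested with edgeR 4.0.16 (TMM, filterByExpr, robust quasi-likelihood, 48 libraries), with the SE taken as the log2 fold change over the square root of F. Endothelial and liver effects were compared through the sum of their squared SEs with Welch-Satterthwaite degrees of freedom. The scripts were tested on simulated data. Marker percentages are of the summed value over kept transcripts.

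The rule for named genes took Nr1d1, Nr1d2 and Alb, the list member with the smallest p (no gene being called), and the 5 smallest p in each direction, for the ZT4 effect and for its difference from the other times, among genes with a mean log2 value of at least 5. Other genes named belong to the lists or were called in liver or against it, and were picked with their values seen, as was S1pr1. Some genes under these rules are not reported here. The lists of 507 genes, the members and these rules were chosen with earlier results of these data known. Alternatives are given with the limits below.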

Additional observations from a re-analysis of the deposited data

Results flagged for a closer look

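Some genes differed without overlap in 1 direction at ZT4 and in the other direction in a second group of libraries, and the differences between endothelial times were not called for any gene (lowest adjusted p 0.83, limma). Several of these genes had been named for that contrast, so the opposite signs are partly how they were picked.

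At ZT10 the signs were opposite for Unc119b (0.26 at ZT4, −0.48 at ZT10), Dzip1l (−0.52 and 0.95) and Zfp687 (−0.44 and 0.22). At ZT16 they were opposite for Sox18 (−0.65 and 0.48), Id3 (−0.66 and 0.76), Lck (−0.68 and 0.36), Fam73a (0.73 and −0.52), Fam63b (0.22 and −0.30) and Tmem243 (0.50 and −0.52). The overlapping loci Wdr89 (−1.15 and 0.56) and Rplp2-ps1 (−1.13 and 0.61) belong here too. At ZT22 they were opposite for Stx8 (−0.59 and 0.11), Ldha (−0.31 and 0.13), Pdgfrb (−0.35 and 0.74), Fam63b (0.22 and −0.26), Unc119b (0.26 and −0.34), Dzip1l (−0.52 and 0.53) and Tnxb (−0.72 and 0.78).

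Against whole liver at ZT4 the signs were opposite, without overlap in either, for Per3 (−0.47 and 1.82), Tspan4 (−0.51 and 0.62) and Dbp (−0.84 and 2.32), for which the difference of effects was called. They were also opposite for Nr1d2 (−0.26 and 0.63), Clec1a (0.61 and −1.003), Nfkbia (0.46 and −0.39) and Pdgfrb (−0.35 and 0.86). For these the difference of effects was not called (adjusted p 0.333 to 0.479, limma and edgeR fits). Clec1a was very low in liver, at 1.18, 0.77 and 0.689 CPM in controls and 0.434, 0.344 and 0.49 in knockouts. Against Kupffer cells, Oas1a was at 0.31 and −0.16, a difference that was not tested.

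By the test of the endothelial minus the liver effect, the 13 genes called were Loxl4 (−3.54), Cry1 (−2.52), Ppard (−2.54), Per3 (−2.29), Dbp (−3.15), Asap1 (−0.92), Tspan4 (−1.13), Tbcel (−0.96), Myo10 (−0.89), Aldh3a2 (1.05), Bhlhe41 (−2.84), Lpl (−1.95) and Fam65c (−2.95).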

How the results depend on the processing

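No gene was called at ZT4 in 18 of 22 alternatives, among them leaving out each library, other pseudocounts and filters, and another transcript choice. In the other 4, 1 gene was called with the 6 ZT4 libraries alone (Ddit4). Without knockout ZT22 libraries 2 and 3, 5 were called (Wdr89, Ddit4, Rplp2-ps1, Cyp17a1 and Clec1a). With the hepatocyte score as a covariate 2 were called. With the 6 libraries alone and that score, chosen after seeing the data, 24 were. Knockout ZT22 libraries 2 and 3 had a standard deviation around their group of 0.511 and 0.489, against 0.25 to 0.373 in the ZT4 libraries. They enter the spread that the main fit shares between times. Without them the SE of Ddit4 at ZT4 was 0.29, and 848 genes had an unadjusted p under 0.05. The 574 genes at an unadjusted p under 0.05 became 866 with no filter, 374 with a mean value of at least 50, 1030 with quality weights per library, 355 without the 2 libraries lowest in hepatocyte markers, 975 with the 6 libraries alone and the score, and 420 to 761 without single libraries. The added test of the endothelial minus the liver effect called 13 genes, and 23 with the 6 libraries alone, 27 without the 2 knockout ZT22 libraries, 8 without the 2 libraries lowest in hepatocyte markers, 39 with the 6 libraries alone and the score, and 6 to 12 without single endothelial libraries. Without single liver libraries it called 9 to 24, the last without liver control library 2. Of 61 named genes 60 kept their sign in every alternative. Alb did not: it ranged from −1.10 to 0.476 without single libraries, the last without knockout library 3. In Kupffer cells 0 to 1 genes were called without single libraries, the 1 without knockout library 3. The cause of these shifts was not tested beyond the fewer libraries, or genes, that some alternatives hold.

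With the replicate number as a block, 0 endothelial genes were called and 543 had an unadjusted p under 0.05. The block gave 0 calls for the difference from the other times (592 at an unadjusted p under 0.05), 0 in Kupffer cells, 205 in liver and 13 for the difference from liver. Same-numbered libraries share only a number: their residuals correlated at −0.26, 0.191 and −0.184, while control 1 and knockout 3 reached 0.459. Depth is unknown for the endothelial table, so low genes such as Cyp17a1 and Bhlhe41 carry no counting interval.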

Other observations

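Spp1, which encodes osteopontin and is abundant in cholangiocytes and some macrophages, had values of 64.1, 102 and 130 in control and 309, 272 and 185 in knockout endothelial libraries at ZT4, a difference of 1.39 ± 0.62 that was not called (adjusted p = 0.989, limma). It is 1 of the 2 listed cholangiocyte markers that passed the filter. It was at −0.07 in Kupffer cells and 0.13 in liver. Adm, the vasodilator adrenomedullin, was at 35.3, 32.6 and 30.8 in controls and 65.2, 74.5 and 57.4 in knockouts, 0.97 ± 0.34. Egln3, a prolyl hydroxylase induced by hypoxia, was at 1.28 ± 0.52, while Ldha, lactate dehydrogenase A, was at −0.31 ± 0.10. These 3 of the 15 hypoxia genes tested had an unadjusted p under 0.05 (4.58% of all genes) and did not share a sign. The tight junction scaffold Tjp1 was at 0.28 ± 0.09, with every knockout library above the controls, beside the lower Cldn5.

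Wdr89 (mm9 chr12:76731581-76770524) and Rplp2-ps1 (mm9 chr12:76731912-76732736) overlap on the same strand and may share reads. Wdr89 had values of 131, 97.2 and 131 in controls and 49.9, 61.6 and 48.2 in knockouts, −1.15 ± 0.34, and Rplp2-ps1 was at −1.13. At ZT10 Wdr89 was at −0.91, and at ZT16 and ZT22 at 0.56 and 0.65. Both were picked after their values were seen.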
